A study of Mus musculus with 4 samples.

Results

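A set of 10 nuclear genes that shape and remove mitochondria were followed in denervated mouse muscle: Mfn1, Mfn2 and Opa1 for fusion, Dnm1l, Mff and Fis1 for fission, and Pink1, Bnip3, Bnip3l and Fundc1 for mitophagy. They were chosen by gene symbol, and 10 of 10 were among the 13825 genes of the count table. The tibialis anterior (TA) muscle came from adult male mice, either wild-type (WT, C57BL/6J) or lacking Fgf21 in the whole body (Fgf21KO), 14 days after sciatic nerve transection in 1 leg. Sham and denervated muscle of WT mice are called WS and WD, and those of Fgf21KO mice KS and KD. The labels describe the sham muscle as that of the innervated right leg, whereas the methods describe a sham operation on the contralateral limb. By the methods, both limbs of the same mice were used for gene expression. Each group was 1 library made from 4 pooled muscles, so pairs of libraries were compared without a replicate check.

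Mitochondria fuse and divide continuously. Mitofusins join outer membranes, OPA1 joins inner membranes and keeps cristae in shape, and the dynamin-like GTPase DRP1, encoded by Dnm1l, is recruited to the outer membrane by adaptors such as MFF to cut the organelle. Damaged mitochondria are marked by the kinase PINK1 or are tied to the autophagosome by receptors such as BNIP3, NIX (encoded by Bnip3l) and FUNDC1, which bind LC3 and GABARAP proteins. In skeletal muscle, denervation is known for loss of mitochondrial content and for activation of autophagy.

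Total counts over the 13825 genes ran from 25249879 to 34141303 per library, and every gene in the table had at least 1 count in every library. The 10 genes had between 682 and 32245 counts. Levels are given as CPM, counts scaled to library size, after TMM scaling, which sets libraries to a common scale by assuming that most genes do not change. Of the 10 myofibre markers listed, 2 (Tnni2 and Myh1) were found by symbol in the count table and summed to 20205 to 32387 CPM. The other 8 were not found there. Levels and shares of counts therefore refer only to the genes of that table. The deleted gene, Fgf21, was not analysed here, and its counts could not serve as a check of genotype. In whole muscle, a lower level can mean less RNA per cell or fewer cells of a type, and these cannot be told apart. The genes encoded by mitochondrial DNA took 27% of counts in WS and 19.4% in WD, against 30.4% in KS and 20.6% in KD. Other scales were therefore tried beside TMM.

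On the TMM scale, denervated muscle of both genotypes had less RNA of the fusion genes and of Pink1, and more of Bnip3 and Dnm1l. For Opa1 this depended on the scale. Across the 4 libraries, 8 of the 10 genes passed the test for denervation (edgeR's quasi-likelihood test in a model with genotype and surgery, Benjamini-Hochberg adjusted p below 0.05). Of these, 2 were higher (Bnip3 and Dnm1l) and 6 were lower (Mfn1, Mfn2, Opa1, Mff, Pink1 and Fundc1). Of all 13084 genes tested, 26.6% were higher and 27.0% were lower, 53.5% in either direction. With total counts alone as the scale, 4 of the 10 were higher and 3 lower, against 46.7% and 12.8% of all genes. With the genes of mitochondrial DNA left out of those totals, 3 were higher and 5 lower, against 36.6% and 19.7%. Mfn1, Mfn2 and Pink1 stayed lower, and Bnip3 and Dnm1l stayed higher, under that scale and the others tried. The model takes the WT and Fgf21KO pairs as 2 samples of the effect of surgery and leaves 1 residual degree of freedom. With so little per gene, the spread is largely shared across genes, and a p-value sets a fold change against that spread. It says little about how alike the pairs of a single gene are. The SE was 0.07 for both Mfn1 and Bnip3, whose log2 ratios differed between genotypes by -0.02 and -0.23. No member was 2-fold apart after denervation in WT or in Fgf21KO muscle (0 of 10), where 14.8% and 13.6% of genes were. With a 2-fold change added to the adjusted p, 13.1% of genes and no member were called. DESeq2's Wald test gave the same 8 members (37.3% of genes).

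**Figure D1:**
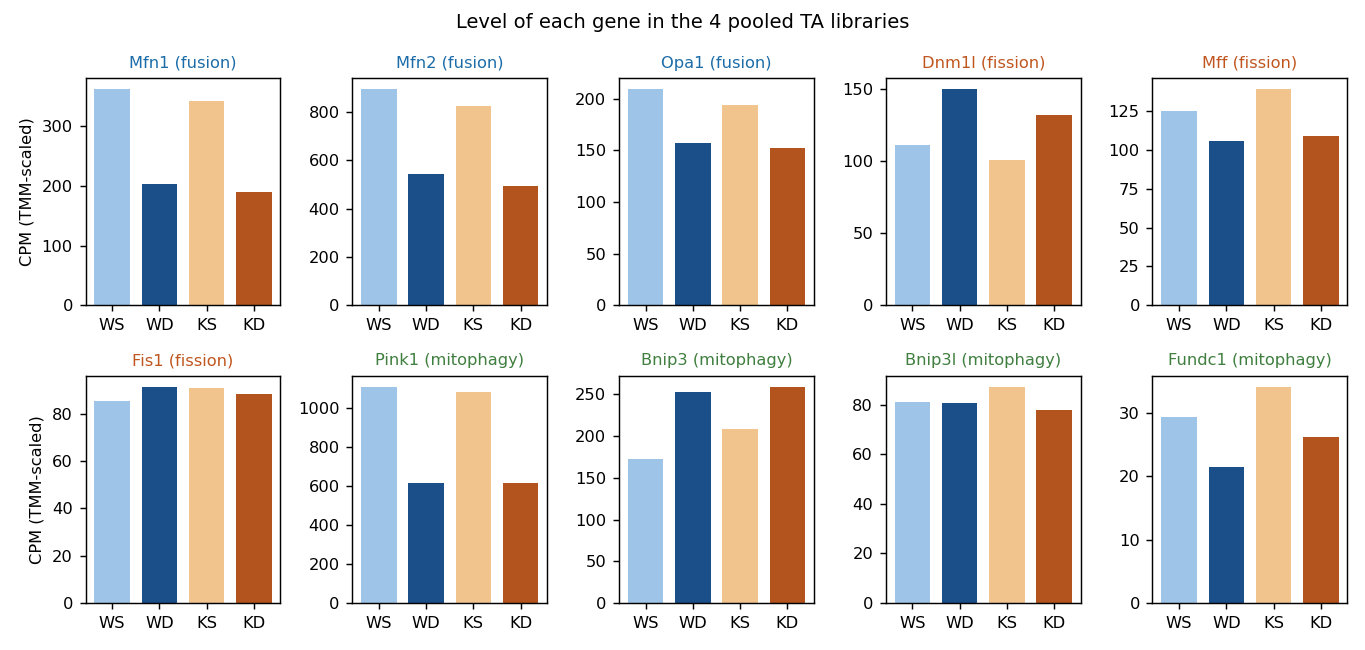
Level of each gene (CPM after TMM scaling, axes starting at 0 and differing between panels) in WS, WD, KS and KD, with 1 bar per pooled library and therefore no error bar. Mfn1, Mfn2, Opa1 and Pink1 stand lower in both denervated libraries than in both sham libraries, and Bnip3 and Dnm1l stand higher.

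Promoter sequences are shown for the 5 genes that passed the denervation test in the same direction under every scaling, so that the pair that rose can be read beside the 3 that fell. Each runs from 250 bases before to 50 bases after an annotated start, 5′ to 3′ on the gene's strand, from RefSeq on GRCm38.p6. The submitters' processing notes name GRCm39 for the counts. Capitals mark matches on either strand to ACGTG or GCGTG (the hypoxia-inducible factor core), CACGTG (an E-box, which contains ACGTG on both strands), GTAAACA (FoxO), AAGGTCA (oestrogen-related receptors), or to the palindromic motif of NRF1. The table held a promoter for 9 of the 10 genes, and none was printed for Bnip3l.
Bnip3, chr7:138909457-138909756, minus strand: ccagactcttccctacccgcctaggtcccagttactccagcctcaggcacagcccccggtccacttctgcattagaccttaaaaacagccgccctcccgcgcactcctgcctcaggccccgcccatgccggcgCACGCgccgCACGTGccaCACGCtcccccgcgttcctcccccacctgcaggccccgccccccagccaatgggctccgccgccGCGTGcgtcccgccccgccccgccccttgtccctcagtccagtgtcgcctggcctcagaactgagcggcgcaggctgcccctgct
Dnm1l, chr16:16358982-16359281, minus strand: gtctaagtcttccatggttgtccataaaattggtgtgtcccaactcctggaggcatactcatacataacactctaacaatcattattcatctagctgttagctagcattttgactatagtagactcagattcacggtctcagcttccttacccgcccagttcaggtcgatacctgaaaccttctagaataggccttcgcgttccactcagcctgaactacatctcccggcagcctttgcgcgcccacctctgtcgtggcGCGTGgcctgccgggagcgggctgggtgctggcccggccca
Pink1, chr4:138326247-138326546, minus strand: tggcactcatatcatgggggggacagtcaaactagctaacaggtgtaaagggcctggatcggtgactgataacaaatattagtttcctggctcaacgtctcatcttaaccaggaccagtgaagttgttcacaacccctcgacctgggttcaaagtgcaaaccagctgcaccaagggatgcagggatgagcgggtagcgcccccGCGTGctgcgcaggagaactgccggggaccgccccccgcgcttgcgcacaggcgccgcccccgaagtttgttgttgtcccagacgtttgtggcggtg
Mfn1, chr3:32529232-32529531, plus strand: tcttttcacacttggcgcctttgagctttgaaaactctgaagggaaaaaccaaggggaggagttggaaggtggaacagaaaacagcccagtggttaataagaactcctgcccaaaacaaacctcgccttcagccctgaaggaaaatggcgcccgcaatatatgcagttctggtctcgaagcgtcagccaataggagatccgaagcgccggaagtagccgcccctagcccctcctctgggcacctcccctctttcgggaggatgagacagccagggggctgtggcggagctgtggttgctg
Mfn2, chr4:147904860-147905159, minus strand: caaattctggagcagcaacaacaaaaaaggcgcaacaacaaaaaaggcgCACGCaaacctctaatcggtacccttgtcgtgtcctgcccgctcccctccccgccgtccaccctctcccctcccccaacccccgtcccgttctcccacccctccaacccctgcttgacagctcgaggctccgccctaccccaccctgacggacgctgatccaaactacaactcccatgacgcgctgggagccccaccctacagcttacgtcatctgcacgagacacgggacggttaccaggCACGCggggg
The window of Bnip3 held 3 matches to GCGTG and 1 CACGTG, which also accounts for its 2 matches to ACGTG. Among the 9 windows, Bnip3 alone held ACGTG or CACGTG, which occurred in 19.6% and 7.15% of the 32851 promoters of the table. GCGTG occurred in 5 of the 9 windows and in 32.4% of all promoters. Neither GTAAACA (3.65% of all promoters) nor AAGGTCA (4.72%) was found in any of the 9. The window of Opa1, not printed, held the NRF1 motif, found in 0.971% of all promoters. For Dnm1l and Mfn2, which have 2 and 3 annotated starts, the start nearest the 5′ end of the gene was used. These are matches of letters only.

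Among the fusion genes, both mitofusins fell. Mfn1 had 362 CPM in WS and 203 in WD, against 343 in KS and 189 in KD. Both denervated libraries lay below both sham libraries. The log2 ratio was -0.83 in WT (95% counting interval -0.88 to -0.79) and -0.86 in Fgf21KO muscle (-0.90 to -0.81), and the log2 fold change over all 4 libraries was -0.85 ± 0.07 (SE), with an adjusted p of 2.9e-11 in edgeR's quasi-likelihood test. Counting intervals cover counting error only and leave out the spread between mice. Mfn2, which also ties mitochondria to the endoplasmic reticulum, had 895 CPM in WS and 545 in WD, against 824 in KS and 492 in KD. Its log2 fold change was -0.73 ± 0.07 (edgeR adjusted p = 9.6e-10). Sham and denervated libraries did not overlap for either mitofusin. Of all genes tested, 9.39% had a lower log2 fold change than Mfn1, and 12.5% had a lower one than Mfn2.

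Opa1, the GTPase of the inner membrane, was lower too. It had 209 CPM in WS and 157 in WD, against 194 in KS and 152 in KD, a log2 fold change of -0.38 ± 0.07 (edgeR adjusted p = 4.1e-05). Its log2 ratio was -0.41 in WT and -0.35 in Fgf21KO muscle. With total counts alone the log2 fold change of Opa1 was -0.06 and did not pass the test. The mitofusins were thus lower under every scale tried, and Opa1 under all of them except total counts.

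The fission genes did not move together. Dnm1l, the GTPase that constricts the organelle, rose, with 111 CPM in WS and 150 in WD, against 101 in KS and 132 in KD. Both denervated libraries lay above both sham libraries. The log2 fold change of Dnm1l was 0.41 ± 0.07 (edgeR adjusted p = 2.1e-05), below which lay 76.1% of the genes tested. Its log2 ratio was 0.43 in WT (counting interval 0.36 to 0.50) and 0.38 in Fgf21KO muscle (0.32 to 0.45). Mff, the adaptor that recruits DRP1, had 125 CPM in WS and 106 in WD, against 139 in KS and 109 in KD. It fell by 0.30 on the log2 scale (edgeR adjusted p = 0.00101), but with total counts alone its log2 fold change was 0.02. Fis1, an outer membrane protein also linked to division, had 85.7 CPM in WS and 91.5 in WD, against 90.9 in KS and 88.6 in KD. Its 4 libraries lay close together and its sham and denervated levels overlapped, with a log2 fold change of 0.03 ± 0.07 that did not pass the test (edgeR adjusted p = 0.776). With total counts alone, and with total counts without the genes of mitochondrial DNA, Fis1 passed as higher (0.35 and 0.18).

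Ratios between genes within a library do not depend on how libraries are scaled. Per base of annotated exon, the level of Dnm1l relative to Mfn2 was 0.139 in WS and 0.307 in WD, against 0.137 in KS and 0.300 in KD. The ratio was 2.21-fold higher in denervated than in sham muscle in WT (log2 1.15, counting interval 1.07 to 1.22) and 2.19-fold higher in Fgf21KO muscle (log2 1.13, 1.05 to 1.20). Relative to Mfn1, the ratio of Dnm1l was 2.40-fold and 2.36-fold higher. The level of Mfn2 relative to Mfn1 changed little, from 2.39 in WS to 2.60 in WD and from 2.33 in KS to 2.52 in KD. The division gene thus gained on both mitofusins by more than 2-fold, although none of the 3 was itself 2-fold apart. How many other pairs of genes changed as much was not tested.

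Of the mitophagy genes, Pink1 and Bnip3 moved in opposite directions. Pink1 encodes the kinase that accumulates on depolarised mitochondria. It had 1110 CPM in WS and 615 in WD, against 1086 in KS and 616 in KD, and both denervated libraries lay well below both sham libraries. Its log2 ratio was -0.85 in WT (counting interval -0.88 to -0.83) and -0.82 in Fgf21KO muscle (-0.84 to -0.79). The log2 fold change was -0.84 ± 0.07 (edgeR adjusted p = 8.1e-11), below which lay 9.68% of the genes tested. Bnip3, a receptor of the outer membrane induced by hypoxia and FoxO factors, had 173 CPM in WS and 253 in WD, against 208 in KS and 259 in KD. Denervated libraries lay above sham libraries. The log2 fold change of Bnip3 was 0.43 ± 0.07 (edgeR adjusted p = 1.2e-05), below which lay 77.4% of the genes tested. The level of Bnip3 relative to Pink1, per base of exon, was 0.225 in WS and 0.594 in WD, against 0.276 in KS and 0.607 in KD. That ratio was 2.65-fold higher after denervation in WT and 2.20-fold higher in Fgf21KO muscle.

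Of the other receptors, Fundc1 was lower and Bnip3l did not pass. Bnip3l, the closest relative of Bnip3, had 81.3 CPM in WS and 80.7 in WD, against 87.2 in KS and 77.7 in KD. Its sham and denervated levels differed little, and its log2 fold change of -0.09 ± 0.08 did not pass the test (edgeR adjusted p = 0.335), while with total counts alone it was 0.23 and passed as higher. A pseudogene, Bnip3l-ps, held 4.63% to 5.20% as many counts as Bnip3l in each library, and reads may be split between the pair. Bnip3l is also used by maturing red cells, and the 5 red cell genes analysed, of 7 listed, summed to 289 CPM in WS and 208 in WD, against 333 in KS and 170 in KD. The part of red cell RNA in the level of Bnip3l was not tested. Fundc1, a receptor that acts in hypoxia, was the least abundant of the 10, with 29.4 CPM in WS and 21.4 in WD, against 34.1 in KS and 26.2 in KD. It fell by 0.42 on the log2 scale (edgeR adjusted p = 5.4e-04), and with total counts alone its log2 fold change of -0.10 did not pass.

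**Figure D2:**
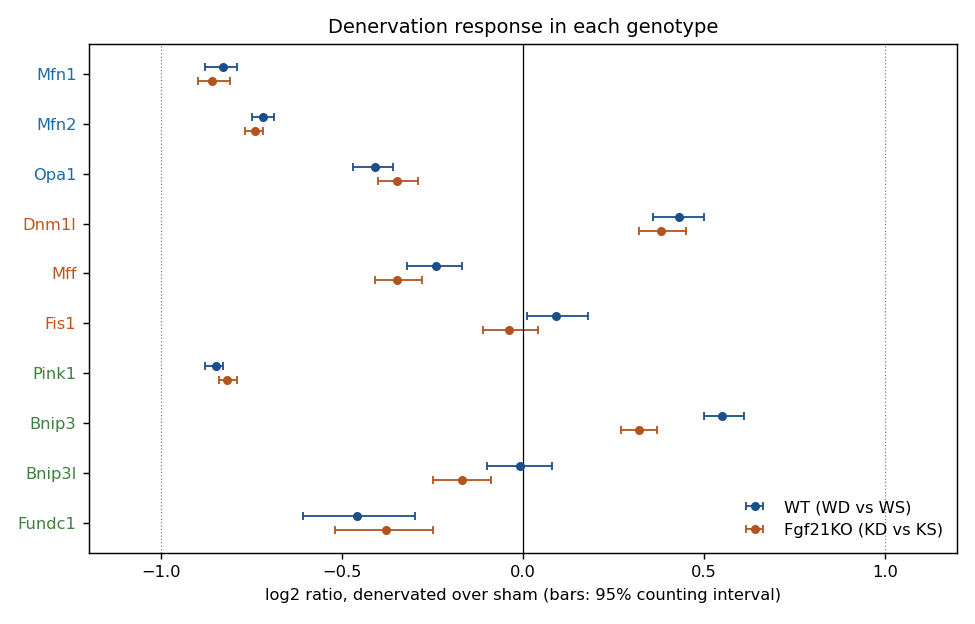
Log2 ratio of denervated over sham muscle for each gene in WT (WD vs WS) and Fgf21KO (KD vs KS), with bars for the 95% counting interval, a solid line at 0 and dotted lines at a 2-fold difference. Points of the 2 genotypes lie close together, and the largest gap is that of Bnip3, at 0.55 in WT and 0.32 in Fgf21KO.

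The order of levels changed with denervation. Compared per kilobase of annotated exon, Pink1 was highest in every library, at 415 CPM per kb in WS and 230 in WD. In sham muscle Mfn2 came next (177 in WS and 163 in KS) followed by Bnip3 (93.2 and 112). In denervated muscle Bnip3 came next (137 in WD and 140 in KD), ahead of Mfn2 (107 and 97.0). Dnm1l stood below Opa1 in both sham libraries, at 24.5 against 33.2 in WS, and above it in both denervated libraries, at 33.0 against 25.0 in WD. Fundc1 was lowest throughout, at 9.28 to 14.8. The neighbours whose ratio did not leave 1 by counting error were Bnip3l and Dnm1l in WS, and Opa1 and Bnip3l in WD and in KD. The order rests on exon lengths from GENCODE M21 and may differ with the isoforms used.

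RNA of genes that track mitochondrial content was lower in the same libraries. Of 18 nuclear-encoded genes for matrix and membrane proteins analysed, 16 were lower after denervation, where 27.0% of all genes were. Hspd1, a matrix chaperonin, was higher and 1 gene did not pass. The median log2 fold change of the 18 was -0.41, against 0.01 for all genes tested. All 13 genes encoded by mitochondrial DNA were lower, with a median of -0.81. With total counts alone, 8 of the nuclear-encoded genes were lower and 2 higher, against 12.8% and 46.7% of all genes. The 13 remained lower. The nuclear-encoded genes ran from -0.75 (Mdh2) to 0.26 (Hspd1). Mfn1 (-0.85) and Pink1 (-0.84) lay below that range and close to the median of the mitochondrially encoded genes, Bnip3 (0.43) and Dnm1l (0.41) lay above it, and the other 6 members lay within it. Set against the median of the nuclear-encoded list, which removes the choice of scale, Mfn1, Pink1 and Mfn2 differed by -0.44, -0.43 and -0.32. Opa1 (0.03), Fundc1 (-0.01) and Mff (0.11) lay close to that median. Bnip3 and Dnm1l lay above it by 0.84 and 0.82, Fis1 by 0.44 and Bnip3l by 0.32. Within genotypes, this difference ran from -0.46 (Pink1) to 0.95 (Bnip3) in WT and from -0.39 (Mfn1) to 0.85 (Dnm1l) in Fgf21KO muscle.

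**Figure D3:**
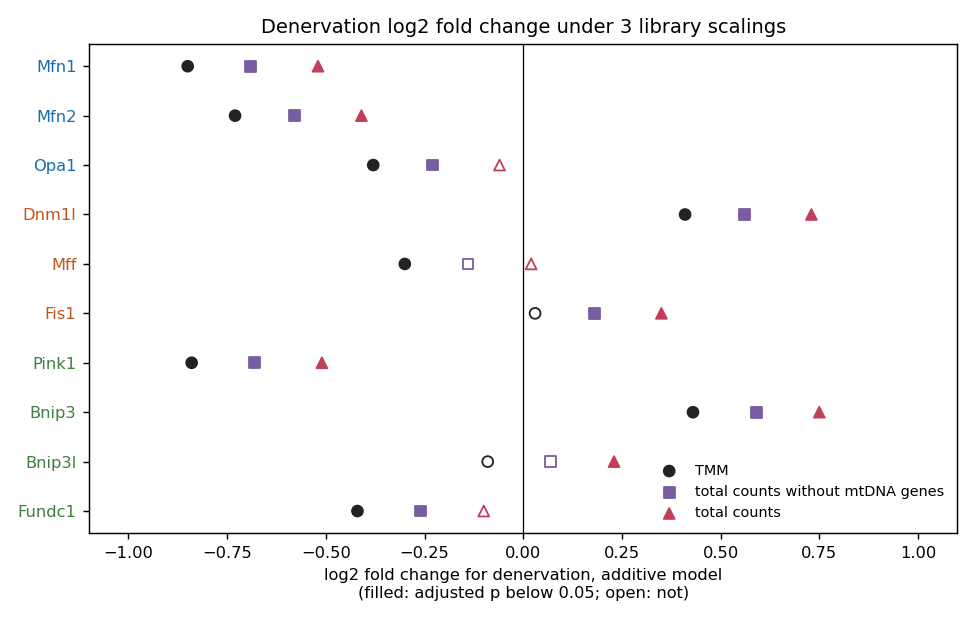
Log2 fold change for denervation over the 4 libraries (edgeR, genotype and surgery in the model) under TMM scaling, total counts without the genes of mitochondrial DNA, and total counts alone, with filled points at an adjusted p below 0.05 and open points otherwise. Mfn1, Mfn2, Pink1, Bnip3 and Dnm1l are filled on the same side of 0 under each, whereas Opa1, Mff, Fis1, Bnip3l and Fundc1 gain or lose the call.

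Other genes of fusion and cristae structure were mixed. Of the 18 analysed, 5 were higher, 6 lower and 7 did not pass, where 26.6% of all genes were higher and 27.0% lower. Their median log2 fold change was -0.01. The highest were Miga1, a mitoguardin that promotes fusion (0.67 ± 0.11, edgeR adjusted p = 7.3e-06), and Micos13, a subunit of the cristae-organising MICOS complex (0.35 ± 0.09, edgeR adjusted p = 9.1e-04). The lowest were Chchd3 and Micos10, also MICOS subunits, with log2 fold changes of -0.71 and -0.51 (edgeR adjusted p = 1.4e-09 and 1.2e-06). Subunits of a single complex thus moved apart. On the scale of total counts, 11 were higher and 2 lower, against 46.7% and 12.8% of all genes. Miga1, Micos13, Chchd3 and Micos10 kept their direction.

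Of 12 further fission genes, 1 was higher, 4 were lower and 7 did not pass, against 26.6% of all genes higher and 27.0% lower. Their median was -0.07. Spire1, an actin nucleator whose mitochondrial isoform acts at sites of division, rose by 0.81 ± 0.11. Inf2, a formin that acts with it, fell in both genotypes, from 658 counts in WS to 366 in WD and from 571 in KS to 378 in KD (log2 fold change -1.0 ± 0.13). Its log2 ratio was -1.33 in WT but -0.65 in Fgf21KO muscle, and the gap between them was not tested. Mtfp1, a fission protein of the inner membrane, had a log2 fold change of -0.82 ± 0.08. Pgam5, a phosphatase that also counts among the mitophagy genes, was the next highest after Spire1 and did not pass (0.17 ± 0.09, edgeR adjusted p = 0.109). Total counts as the scale gave 7 higher, Pgam5 among them, and 2 lower, against 46.7% and 12.8% of all genes. Pgam5 also passed as higher with the genes of mitochondrial DNA left out of those totals (0.32).

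Of 25 other mitophagy genes analysed, 10 were higher, 5 lower and 10 did not pass, where 26.6% of all genes were higher and 27.0% lower, and their median was 0.09. The list was not tested against other genes. Src, a kinase of FUNDC1 among others, was highest (1.95 ± 0.18), from 61 to 330 counts in WT and from 82 to 331 in Fgf21KO muscle. Ulk1, which starts autophagy and phosphorylates FUNDC1, fell (-0.62 ± 0.07, edgeR adjusted p = 3.1e-08). Nipsnap1, a mitochondrial protein that recruits autophagy adaptors, had 14 to 18 counts and did not pass. Scaled by total counts, 18 were higher and 1 lower, against 46.7% and 12.8% of all genes, and the lower gene was Ulk1.

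Of the 5 genes for LC3 and GABARAP proteins, which the receptors bind, 4 were higher, where 26.6% of all genes were. Their median log2 fold change was 0.46. Map1lc3a rose most, from 3597 counts in WS to 15747 in WD and from 5489 in KS to 16895 in KD (1.60 ± 0.07, edgeR adjusted p = 2.8e-17). Gabarapl1 rose by 0.94, Gabarap by 0.46 and Gabarapl2 by 0.34. Map1lc3b did not pass (0.04 ± 0.07). It passed as higher with total counts alone (0.36) and with the genes of mitochondrial DNA left out of those totals (0.19).

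**Figure D4:**
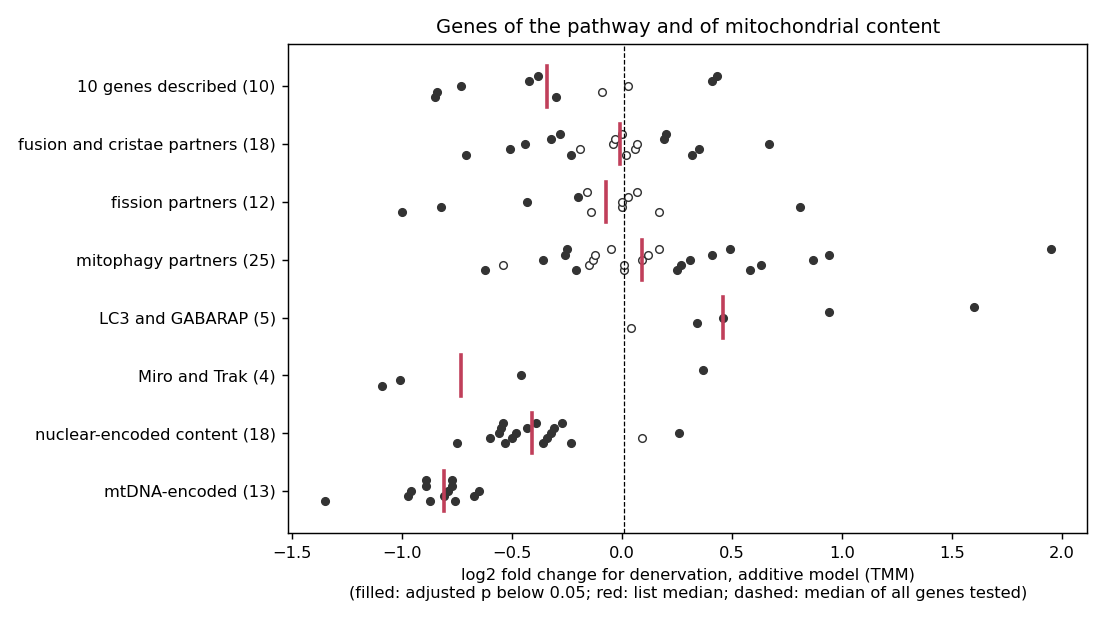
Log2 fold change for denervation of each gene of the lists (1 point per gene, filled at an adjusted p below 0.05), with list medians in red, the number analysed in parentheses and the median of all genes as a dashed line. The mtDNA-encoded genes sit furthest to the left with a median of -0.81, the LC3 and GABARAP genes lie at or above 0.04, and the 10 genes described spread from -0.85 to 0.43.

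None of these genes passed the test for deletion of Fgf21. In the same model, 0 of the 10 were called for genotype with edgeR at an adjusted p below 0.05 (0.673% of all genes were), and 2 had an unadjusted p below 0.05 (7.93% of all genes). DESeq2's Wald test gave 0 at either threshold (0.229% of all genes passed after adjustment). No member was 2-fold apart in KS vs WS or in KD vs WD (0 of 10), where 2.04% and 1.55% of genes were. The genes below 0.05 before adjustment were Fundc1 and Dnm1l. Fundc1 had 34.1 CPM in KS against 29.4 in WS, and 26.2 in KD against 21.4 in WD. The log2 fold change for genotype was 0.25 ± 0.10 (edgeR unadjusted p = 0.0138, adjusted p = 0.396). Dnm1l had lower values in Fgf21KO muscle in both states, with a log2 fold change of -0.16 ± 0.07 (edgeR unadjusted p = 0.0379, adjusted p = 0.58). Mfn1 and Mfn2 were also below their WT levels in both states by more than counting error. The log2 ratios in sham and denervated muscle were -0.08 and -0.10 for Mfn1 and -0.12 and -0.15 for Mfn2. Neither was below 0.05 before adjustment (edgeR unadjusted p = 0.214 for Mfn1 and 0.0737 for Mfn2). In sham and denervated muscle, 36.8% and 26.6% of genes tested had a lower log2 ratio than Mfn1. For Mfn2 these shares were 30.6% and 19.8%. Of the genes on the pathway and content lists, 1 passed for genotype, the mitochondrially encoded ND6, at a log2 fold change of 0.33 (edgeR adjusted p = 0.02). ND6 lies on the opposite strand to most mitochondrial genes, and whether counting used strand is not given in the sources used here.

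The denervation response of each gene was also compared between genotypes. With 1 library per group this difference cannot be tested, and values are given with counting intervals only. The log2 ratio in Fgf21KO minus that in WT was between -0.05 and 0.07 for Mfn1, Mfn2, Opa1, Dnm1l, Pink1 and Fundc1. It was -0.11 for Mff, -0.13 for Fis1 and -0.16 for Bnip3l. The largest was that of Bnip3, at -0.23 (counting interval -0.31 to -0.16), and 61.1% of genes tested had a smaller absolute difference. For Bnip3 the denervated libraries had 253 CPM (WD) and 259 (KD), and the sham libraries 173 (WS) and 208 (KS). The log2 ratio of Fgf21KO over WT was 0.27 in sham muscle (counting interval 0.21 to 0.33) and 0.03 in denervated muscle (-0.01 to 0.08), so the genotypes lay apart in sham muscle and within counting error after denervation.

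Markers of other cells moved with denervation in the same libraries, where 26.6% of all genes were higher and 27.0% lower. Of 6 macrophage markers, 5 were higher, and their summed level was 24.1 CPM in WS and 58.6 in WD, against 25.9 in KS and 57.2 in KD. Of 5 endothelial markers, 5 were lower, with sums, in the same order of libraries, of 478, 211, 386 and 204 CPM. Of 6 fibroblast and fibro-adipogenic progenitor markers, 3 were lower (Dcn, Col1a1 and Col3a1) and none higher, with sums of 586, 387, 563 and 400 CPM. Pdgfra, Lum and Pi16 did not pass. The log2 ratios in WT and Fgf21KO muscle were of opposite sign for Pi16 (0.71 and -1.05) and for Lum (-0.44 and 0.15). Of 3 nerve and Schwann cell markers analysed, of 7 listed, 2 were lower, with sums of 53.2, 22.1, 53.7 and 22.6 CPM. The 2 myofibre markers were both lower, with sums of 32387, 20205, 30488 and 22167 CPM. Scaled by total counts, 6 macrophage markers were higher and 5 endothelial markers lower, while 1 marker of each of the other 3 lists was lower. On that scale 46.7% of all genes were higher and 12.8% lower. The 10 genes described summed to 3181, 2221, 3107 and 2142 CPM. The part of these shifts in the levels of the 10 genes was not tested. The 4 satellite cell markers listed were not found by symbol in the count table. The 1 adipocyte marker analysed, Cidec, was at 0.808 to 1.85 CPM.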

How the data were processed

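Total RNA of TA muscle was sequenced as 4 libraries from TruSeq Stranded mRNA kits. The authors deposited raw read counts per gene symbol, and a second table of log2 values named for FPKM. These deposited log2 values were counts multiplied by a single factor per library, with a pseudocount of 1 and no length correction, and served only as an alternative. The submitters' processing notes name FastQC and GRCm39, and the aligner and counter are not given in the sources used here. Counts were analysed in R 4.3.3 with edgeR 4.0.16 (TMM, quasi-likelihood test, model of genotype and surgery) over the 13084 genes whose counts averaged 10 or more. The common biological coefficient of variation was 0.0681. Pairs of libraries were compared by log2 CPM with a prior count of 2 and, for counting error, an exact 95% interval. Standard errors were derived from the fold change and the F statistic. The study also required a 2-fold change. Here an adjusted p below 0.05 alone was used, and the fold criterion was an alternative, beside other scalings, filters and prior counts and DESeq2 1.42.0. The script was tested on simulated data. The genes named are all members and, from each list of partners, the 2 highest and 2 lowest, and lists of 5 or fewer in full. A further gene fixed by that rule is not reported here. Bnip3l-ps, Hspd1, Mdh2, ND6, Epas1, Foxo3 and the marker genes named were chosen after their values were seen. Members and lists were chosen with earlier results of these data known. A level of 3 counts corresponds to 0.0919 to 0.129 CPM. Exon lengths are from GENCODE M21 (GRCm38), and promoters from RefSeq (GRCm38.p6).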

Additional observations from a re-analysis of the deposited data

Results flagged for a closer look

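Fis1 had ratios of opposite sign in the genotypes, with log2 ratios of denervated over sham muscle of 0.09 in WT and -0.04 in Fgf21KO, a difference of -0.13 (counting interval -0.24 to -0.02). Its log2 ratio of Fgf21KO over WT was likewise 0.08 in sham and -0.05 in denervated muscle. For Bnip3l the log2 ratio of Fgf21KO over WT was 0.10 in sham and -0.06 in denervated muscle. For Pink1 it was -0.03 in sham and 0.00 in denervated muscle, where the sign rests on a difference below the digits printed. None of these differences was tested, since each group is 1 library. Groups of 1 library could not be examined for a library far from the others.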

How the results depend on the processing

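No paired analysis was possible because the groups hold a single library each, so no replicate numbers pair libraries beyond the groups themselves, and no library could be left out. The model with genotype and surgery already sets denervated against sham muscle within each genotype. Total counts alone moved the median log2 ratio of all genes for denervation to 0.29 in WT and 0.36 in Fgf21KO muscle, where TMM gave 0.01, and values on that scale are to be read against this shift. On it, 4 members were higher and 3 lower, in place of 2 and 6. Mff changed from -0.30 to 0.02 and Bnip3l from -0.09 to 0.23, and Opa1 (-0.06), Mff and Fundc1 (-0.10) no longer passed. Leaving the genes of mitochondrial DNA out of the totals, Mff (-0.14) did not pass and Fis1 (0.18) did. With the study's fold criterion added, 0 members were called, 0 higher and 0 lower, against 13.1% of all genes. DESeq2 size factors, DESeq2's Wald test, no filter, a stricter filter (mean count of 50) and a model without the other factor each called 8 members for denervation, 2 higher and 6 lower, against 37.3% to 58.9% of all genes. No scaling, filter, prior count or pseudocount (1 or 0.1 on the deposited log2 values) brought a member to a 2-fold difference in any comparison, and no alternative called a member for genotype. The spread between mice is not known from these pools.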

Other observations

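The genes that carry mitochondria along microtubules also moved apart. Of the 4 Miro and Trak genes, 1 was higher and 3 lower after denervation, against 26.6% and 27.0% of all genes. Rhot1 (Miro1) rose by 0.37 ± 0.08 on the log2 scale, whereas its paralog Rhot2 had a log2 fold change of -1.09 ± 0.07, from 4661 to 3070 counts in WT and from 5193 to 2537 in Fgf21KO muscle. The adaptors Trak1 and Trak2 had log2 fold changes of -1.01 and -0.46 (edgeR adjusted p = 1.9e-12 and 3.5e-06), and with total counts alone Trak2 did not pass. Rhot1, Rhot2 and Trak1 kept their direction and their call under that scale.

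Among 10 factors known to act on these genes, 3 were higher and 6 lower, against 26.6% and 27.0% of all genes. With total counts alone 4 were higher and 3 lower (46.7% and 12.8% of all genes). With the genes of mitochondrial DNA left out of the totals, 3 were higher and 4 lower (36.6% and 19.7%). Foxo1, a driver of autophagy genes in atrophy, rose by 1.45 ± 0.09 and Hif1a, a hypoxia-inducible factor, by 0.42 ± 0.09. Their relatives on the list did not rise with them. Epas1, another hypoxia-inducible factor, had a log2 fold change of -0.81 ± 0.07, and Foxo3 did not pass (0.05 ± 0.09). Tfeb, a regulator of lysosomal genes, and Esrra, an orphan receptor that acts on oxidative genes, had log2 fold changes of -1.08 ± 0.08 and -1.01 ± 0.08.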
